A study of Homo sapiens with 24 samples.

Results

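The transcripts described here belong to 10 genes of the endoplasmic reticulum (ER) stress response: HSPA5, HSP90B1, CALR, PDIA4, DNAJB9, SDF2L1, HERPUD1, ATF6, ERN1 and XBP1. A probe set, the group of short oligonucleotides that reports a transcript on the array, was taken as a member where the platform annotation gave it a single gene symbol and that symbol was 1 of the 10. This rule found 24 of the 54675 probe sets, and 10 of the 19775 genes so annotated. SDF2L1 had 1 probe set and the other 9 genes had more than 1. The study followed the loss of mitochondrial DNA (mtDNA) in human cells on 24 microarrays, in 8 groups of 3 cultures. HEK293, a line from human embryonic kidney, carried a doxycycline-inducible dominant-negative form of POLG, the mtDNA polymerase, and was sampled before doxycycline (day 0) and after 3, 6 and 9 days of it (DN-POLG cells). A derivative of it, the AOX/NDI1 cells, also expressed an alternative oxidase and a single-subunit NADH dehydrogenase that oxidise NADH without the mtDNA-encoded respiratory complexes, and was sampled at days 0 and 9. The last 2 groups were 143B osteosarcoma cells, with mtDNA (rho+) or chronically without it (rho0). All groups grew in high-glucose DMEM with uridine and pyruvate, media in which cells live without respiration. Each model is a single cell line, so the p-values describe the spread between cultures of a line. In bulk RNA, fewer cells with a transcript and less of it in each cell cannot be told apart.

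Proteins that fail to fold in the ER are sensed by IRE1 (from ERN1), ATF6 and PERK. IRE1 splices XBP1 RNA and ATF6 is cut to release a transcription factor, and these factors raise ER chaperones, folding enzymes and degradation genes. PERK phosphorylates eIF2alpha, which favours translation of ATF4 and of CHOP (from DDIT3). Other kinases than PERK phosphorylate the same residue, so targets of ATF4 can rise with or without the ER branches. The 10 genes report on those branches, and the comparison asks whether the ATF4 response of mtDNA-depleted cells came with them. The probe sets measure total RNA of a gene and do not separate spliced from unspliced XBP1.

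Known elements of the ER branches were searched for in the promoters of these genes, and the matched letters are printed here to show which of the 10 hold them. All 10 genes had a promoter in the RefSeq table (GRCh38.p14, 250 bases before to 50 bases after the annotated start), and each was searched on both strands. The ER stress element (ERSE) is CCAAT, then 9 bases of any kind, then CCACG, and is read by the factor NF-Y at its CCAAT end and by ATF6 or XBP1 at its CCACG end. It was found in 4 of the 10 promoters, against 0.0769% of all 35116 promoters of that length. A shorter form, ERSE-II, is ATTGG and CCACG with 1 base between them, and was found in 2 others, against 0.0541% of all promoters. In the lines that follow, capitals mark the fixed letters of the motif, lower case the letters between and beside them, and each sequence runs 5′ to 3′ on the strand named.
HSPA5 ERSE, chr9:125241386-125241414, minus strand: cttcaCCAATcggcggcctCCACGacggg
HSP90B1 ERSE, chr12:103930211-103930239, plus strand: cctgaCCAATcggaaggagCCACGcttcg
HSP90B1 ERSE, chr12:103930316-103930344, minus strand: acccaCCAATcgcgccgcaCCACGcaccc
CALR ERSE, chr19:12938379-12938407, minus strand: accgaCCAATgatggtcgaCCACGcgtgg
XBP1 ERSE, chr22:28800598-28800626, minus strand: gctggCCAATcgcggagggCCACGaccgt
HERPUD1 ERSE-II, chr16:56932020-56932040, plus strand: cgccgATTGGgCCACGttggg
SDF2L1 ERSE-II, chr22:21642109-21642129, minus strand: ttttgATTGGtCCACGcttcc

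The HSPA5 and XBP1 matches lay close to the start site, 66 to 48 and 52 to 34 bases upstream and in the direction of the gene. Those of HSP90B1 ended 176 and 71 bases upstream, that of CALR 207, that of HERPUD1 107 and that of SDF2L1 178. The C/EBP-ATF element bound by ATF4 (TGATGNAA) was found in 1 of the 10, HERPUD1, against 3.62% of all promoters, so that HERPUD1 alone held letters of both kinds.
HERPUD1 C/EBP-ATF element, chr16:56931961-56931978, minus strand: cgggcTGATGcAAcccgc

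Of 27 other genes searched from a list of ATF4 and its targets outside the ER, 9 held the C/EBP-ATF element and 0 held either ERSE form. An XBP1 element (UPRE core, TGACGTGG) was in 0 of the 10 promoters and in 0.729% of all. A match describes letters in this window and is not a binding site, and a missing match says only that these letters are absent from it. The genes were chosen as ER stress genes and the elements as known ones of the ER branches, so these counts are a description and not a test.

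Values are MAS5 signals, a linear brightness that the authors scaled so that each array had a trimmed mean of about 500.1. Signals of different probe sets cannot be ranked against each other, so levels are compared only within a probe set. The 22 of 24 probe sets whose mean log2 signal reached the median of all probe sets were tested in HEK293, and all 24 in 143B. HERPUD1 1569380_a_at and XBP1 242021_at were too dim in HEK293. Another 2 probe sets of HSP90B1 are also annotated to MIR3652 and were not used. The POLG signal was higher under doxycycline at 1 of the 3 POLG probe sets, 217635_s_at, with 280.1 to 421.0 at day 0 and 2834 to 4739 at day 9 of DN-POLG. In AOX/NDI1 cells the 3 arrays of day 9 gave 4035, 2468 and 447.2 there, so replicate 3 lay close to its day 0 (196.8 to 274.2). The mtDNA transcript COX2 (1553569_at) had medians of 39010 and 11350 in DN-POLG at days 0 and 9, 36440 and 15930 in AOX/NDI1 cells, and 31250 and 14.55 in rho+ and rho0 cells, and all 3 arrays of AOX/NDI1 day 9 lay from 12670 to 16080. RNA quality was followed on each array by the ACTB signal at the 3′ end over that at the 5′ end, a ratio of 1.05 to 1.81 on 17 of the 18 HEK293 arrays, 8.92 on replicate 1 of DN-POLG day 6, and 5.53 to 17.1 in 143B. Of 6 HEK293 markers, LIN28B and NEFL were higher on every HEK293 array and CDH2 was higher on every 143B array. Of 8 mesenchymal markers, 4 (CD44, AXL, SPARC and NNMT) were higher on every 143B array, and the other markers overlapped. Within HEK293, 1 of 5 tested HEK293 markers was called with time, EYA1, with log2 fold changes of -1.73 in DN-POLG and -1.22 in AOX/NDI1 cells at day 9, and 0 of 4 mesenchymal markers were (limma; 1 of the 4 at an unadjusted p of at most 0.05 in each line).

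After 9 days of mtDNA depletion in DN-POLG cells, the chaperones, folding enzymes and XBP1 gave no call, and ERN1 was the single gene of the 10 with a probe set that changed. That is 1 of 10, against 13.1% of all 12104 tested genes (limma, adjusted p at most 0.05), a share near that of all genes. The median log2 fold change over the 10, taken at the brightest probe set of each, was 0.08, against 0.01 over all tested genes, and 5 of the 10 lay above 0. In the same arrays the list of ATF4 and its targets had a median of 0.66 and that of the CHOP arm 1.02. The plot of all arrays shows the 10 genes one by one.

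**Figure D1:**
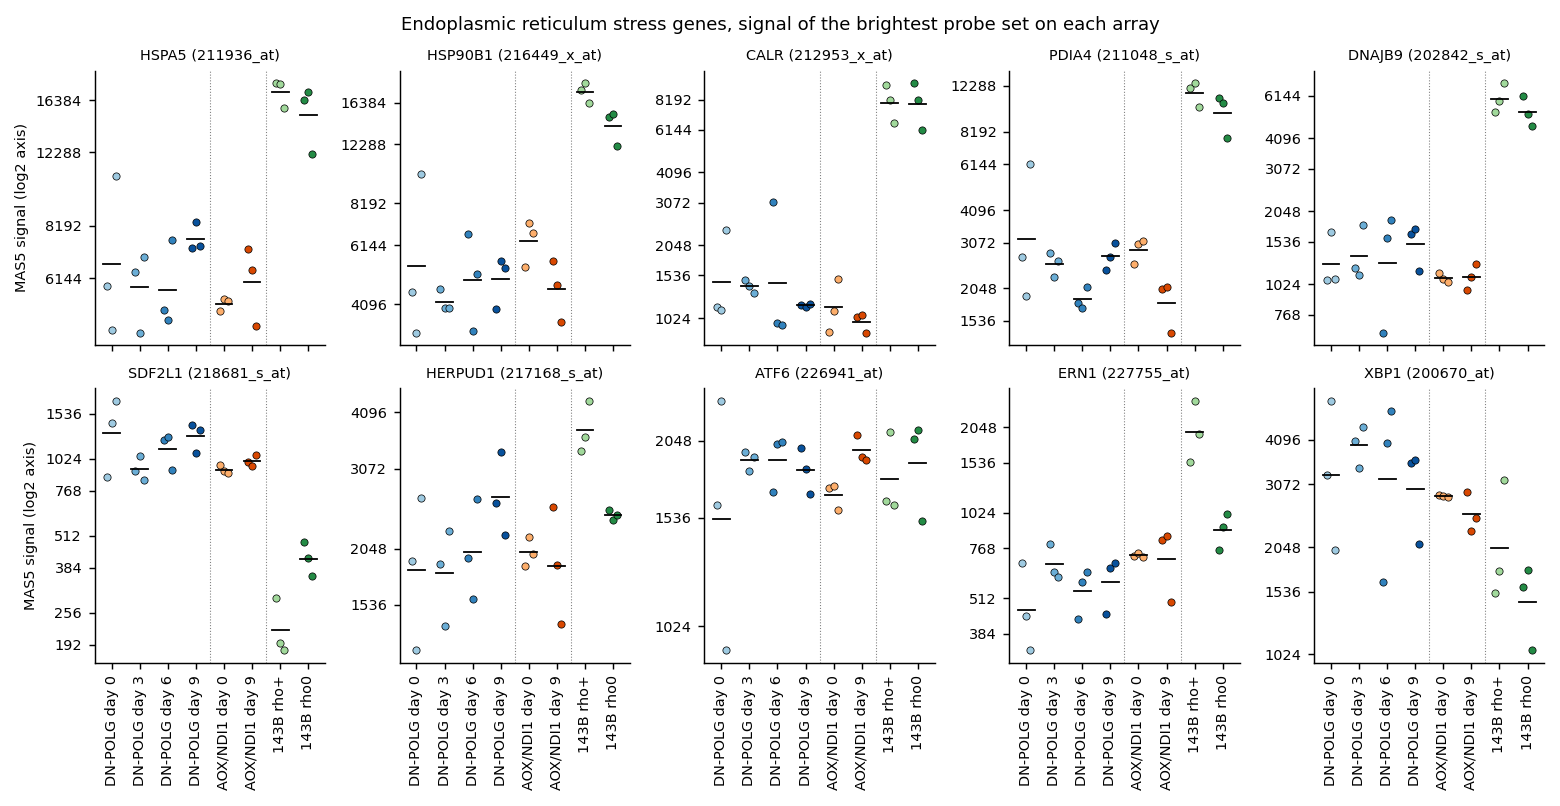
Signal of the brightest probe set of each of the 10 genes on the 24 arrays (y axis, MAS5 signal on a log2 axis; x axis, the 8 groups; points, arrays; bars, mean of the log2 values). HSPA5, HSP90B1, CALR, PDIA4 and DNAJB9 were higher on every 143B array than on any HEK293 array, SDF2L1 was lower, and within HEK293 the groups overlap at most genes.

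HSPA5 encodes BiP, the main Hsp70 of the ER and the best known target of the ERSE printed above. Before doxycycline the DN-POLG arrays gave 5889, 4623 and 10783, and those of day 9 gave 7268, 8358 and 7346. All 3 day 9 arrays lay above 2 of the day 0 arrays and below the third. The log2 fold change was 0.20 (95% interval -0.40 to 0.81, adjusted p = 0.764 from limma), an interval that holds both no change and a rise. The dimmer probe set 230031_at differed by -0.65 (-1.28 to -0.01, adjusted p = 0.224), so the probe sets of this gene pointed in opposite directions.

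HSP90B1 encodes GRP94, the Hsp90 of the ER, and had 4465, 3365 and 10010 at day 0 against 3960, 5518 and 5234 at day 9. The log2 fold change was -0.13 (-0.85 to 0.58). CALR encodes calreticulin, a lectin chaperone that binds glycoproteins, and had 1137, 1111 and 2379 against 1163, 1134 and 1174. Its day 9 arrays were close to each other and within the range of day 0 (log2 fold change -0.32, interval -1.12 to 0.49). None of the 5 probe sets of these genes passed. Of all 22 probe sets of the 10 genes, 2 had days 0 and 9 apart, ERN1 235745_at and DNAJB9 1554462_a_at, against 23.9% of all probe sets.

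Among the folding helpers, PDIA4 is a disulphide isomerase, DNAJB9 (ERdj4) a J-protein that serves BiP, and SDF2L1 a partner of ER J-proteins. PDIA4 signals were 2700, 1921 and 6177 at day 0 and 2415, 2711 and 3069 at day 9, a log2 fold change of -0.22 (-0.90 to 0.45). DNAJB9 had 1064, 1684 and 1077 against 1659, 1732 and 1166 (0.26, -0.45 to 0.98). All 3 of its probe sets lay above 0 at day 9, at 0.26, 0.71 and 0.64, and none passed (adjusted p of 0.510 to 0.727). SDF2L1 had 867.0, 1417 and 1723 against 1381, 1072 and 1329 (-0.03, -0.52 to 0.45). The groups overlapped for PDIA4, SDF2L1 and the brightest probe set of DNAJB9.

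HERPUD1, a membrane protein that assembles the degradation machinery of the ER, had the largest value among the brightest probe sets. Its signals were 1920, 1220 and 2647 at day 0 and 2577, 3353 and 2196 at day 9. The day 9 arrays overlapped day 0 at its replicate 3, and the log2 fold change was 0.54 (-0.11 to 1.18, adjusted p = 0.339).

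That day 0 array, replicate 3, was the highest of the 18 HEK293 arrays for HSPA5, HSP90B1, PDIA4 and SDF2L1 and the lowest for ATF6 and ERN1 at their brightest probe sets. Its ACTB ratio was 1.08 and its mean correlation with its group 0.914, against 0.937 and 0.908 for replicates 1 and 2. Without it, the day 9 log2 fold change was 0.55 for HSPA5 (adjusted p = 0.229), 0.80 for HERPUD1 (adjusted p = 0.148), 0.32 for HSP90B1, 0.26 for PDIA4 and 0.04 for CALR. The signs of HSP90B1, PDIA4 and CALR thus turned with this array, as did those of SDF2L1 (0.18) and ATF6 (-0.09). XBP1 gave -0.48, DNAJB9 0.16 and ERN1 227755_at 0.10 without it, and ERN1 was still the single gene with a call.

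The sensor ATF6 had 1609, 2379 and 935.3 at day 0 and 1995, 1840 and 1679 at day 9 (0.26, -0.27 to 0.79), and its 4 probe sets lay from -0.14 to 0.46 without a call. XBP1 had 3258, 5279 and 2016 against 3528, 3592 and 2083 (-0.13, -0.93 to 0.67). Both genes had day 9 arrays inside the range of day 0.

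ERN1 encodes IRE1, the kinase and nuclease that splices XBP1, and its 3 probe sets gave different answers. At 235745_at the signals were 153.1, 249.9 and 173.6 at day 0, 132.5, 150.5 and 135.8 at day 3, 370.4, 382.1 and 469.1 at day 6, and 697.2, 807.7 and 582.4 at day 9. Every day 6 array lay above every day 0 array, and every day 9 array above every day 6 array. This probe set rose by a log2 fold change of 1.88 at day 9 (standard error 0.23, adjusted p = 1.88e-04 from limma), or 3.67-fold. The brightest, 227755_at, had 680.1, 441.6 and 336.0 at day 0 against 450.2, 656.9 and 679.3 at day 9 (0.33, -0.26 to 0.92, adjusted p = 0.559), and 207061_at gave 0.05 (-0.44 to 0.54). With the probe sets averaged, ERN1 was higher by 0.75 (adjusted p = 0.0180), which rests on 235745_at. Which transcripts of the locus each probe set reads was not tested.

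**Figure D2:**
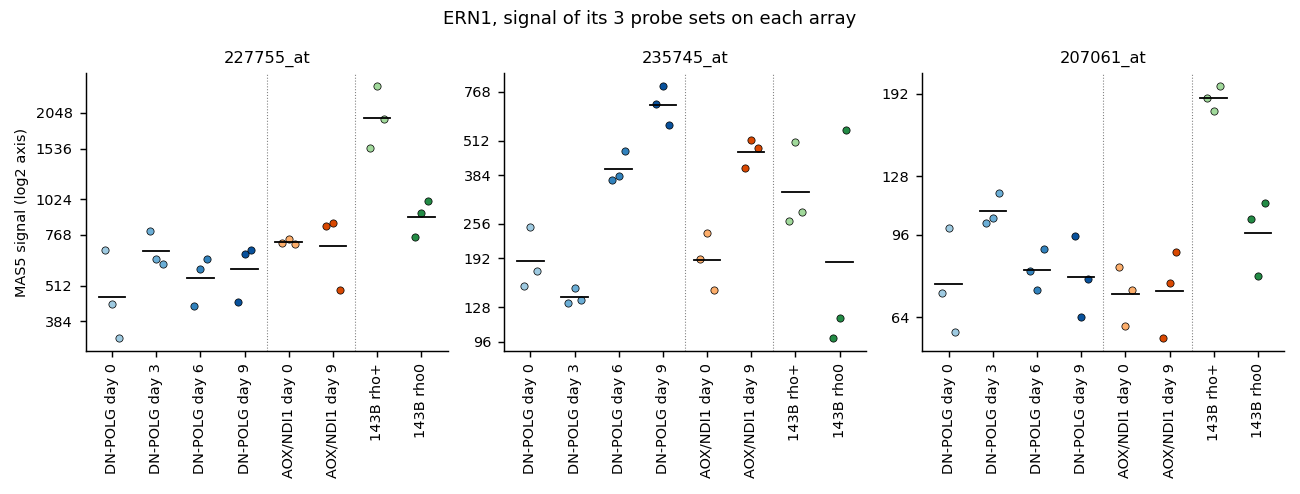
Signal of the 3 probe sets of ERN1 on the 24 arrays (y axis, MAS5 signal on a log2 axis; x axis, the 8 groups; points, arrays; bars, mean of the log2 values). At 235745_at the day 6 and day 9 arrays of HEK293 lie above their day 0, while 227755_at and 207061_at overlap with day 0 on those days and are lower in every rho0 array than in every rho+ array.

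The earlier days share the day 0 arrays with day 9. At day 3 the test called 0 of the 10 genes and 0% of all genes, with 1 of the 10 (ERN1, at 207061_at) and 594 of all 12104 genes at an unadjusted p of at most 0.05, and the ANOVA of the study's methods also called 0 of the 10. ERN1 207061_at had 101.8, 104.1 and 118.0 at day 3 against 72.2, 99.2 and 59.5 at day 0, a log2 fold change of 0.52 (0.03 to 1.00), while 235745_at gave -0.43 (-0.91 to 0.05). At day 3, 2 of the 22 probe sets were apart from day 0, against 5.58% of all, and at day 6, 1 was, against 12.2%. At day 6 the call was ERN1 235745_at again, higher by 1.11 (0.63 to 1.59, adjusted p = 0.0309), as 1 of 10 against 2.45% of all genes. That call did not survive the replicate number as a block (adjusted p = 0.0702), nor 4 other settings given at the end, and it was lost without replicate 1 of day 0 (adjusted p = 0.0789), replicate 3 of day 0 (0.10) or replicate 3 of day 6 (0.0729). Leaving out replicate 1 of day 6, the array with the high ACTB ratio, it was 1.17 (adjusted p = 0.0456).

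The same array also set the spread at day 6 of several genes. CALR had 3093 there against 972.7 and 963.2 in the other day 6 cultures, XBP1 had 1639 against 4016 and 4933, and DNAJB9 had 648.1 against 1588 and 1895. PDIA4 had 1805, 1719 and 2073, all below 2 of its 3 day 0 arrays (log2 fold change -0.77, -1.44 to -0.10, adjusted p = 0.244). This value rests on single day 0 arrays: it was -1.13 and passed without replicate 2 (adjusted p = 0.0448), and was -0.29 without replicate 3 (adjusted p = 0.667), the highest array of this gene.

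AOX/NDI1 cells lose mtDNA under doxycycline but keep a route to oxidise NADH, and here 2 of the 10 genes had a call at day 9, against 18.1% of all 12104 tested genes. The median log2 fold change over the 10 was -0.07, against -0.03 for all genes. The day 0 arrays of these cells lay closer together (median SD of log2 signal 0.15) than those of DN-POLG (0.40).

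ERN1 235745_at rose there too, from 191.9, 237.5 and 148.1 at day 0 to 408.6, 516.6 and 482.5 at day 9. The groups did not overlap, and the log2 fold change was 1.31 (0.82 to 1.79, adjusted p = 0.00167), or 2.47-fold. Its other probe sets gave -0.05 and 0.02, and with the probe sets averaged the gene did not pass (0.43, adjusted p = 0.132).

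HSP90B1 216450_x_at fell by 1.83 on the log2 scale (-2.87 to -0.78, adjusted p = 0.0236), from 1310, 1561 and 1894 to 325.3, 1069 and 249.9. The groups did not overlap, but replicate 2 lay apart from the other day 9 arrays, and the adjusted p was over the threshold (0.0682 to 0.124) once day 0 replicate 2, day 0 replicate 3, day 9 replicate 1 or day 9 replicate 3 was left out. The brightest probe set of this gene had 5298, 7130 and 6662 against 5511, 4664 and 3621, a log2 fold change of -0.48 (-1.19 to 0.24). Both end in _x_at, the platform's mark for probe sets that may also match other transcripts.

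Of the other members, HSPA5 had 5124, 5484 and 5406 at day 0 and 7226, 6416 and 4711 at day 9 (0.17, -0.43 to 0.78). PDIA4 had 2544, 3028 and 3121 against 2028, 2071 and 1384, groups that did not overlap (-0.68, -1.35 to -0.01, adjusted p = 0.181). HERPUD1 had 1870, 2173 and 1990 against 2525, 1883 and 1392 (-0.10, -0.74 to 0.55). Replicate 3 of day 9, the array with the low POLG signal, was the lowest of the day 9 arrays for all of these. Without it the values were 0.35 for HSPA5, -0.49 for PDIA4 and 0.12 for HERPUD1, and none passed.

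Among the 22 probe sets tested, 7 did not overlap between days 0 and 9, against 51.9% of all probe sets. Besides those of ERN1, HSP90B1 and PDIA4 they were CALR 214315_x_at (-0.62, lower) and ATF6 226941_at and 231927_at (0.24 and 0.43, higher). CALR, DNAJB9, SDF2L1 and XBP1 gave -0.20, 0.01, 0.11 and -0.17 at their brightest probe sets.

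**Figure D3:**
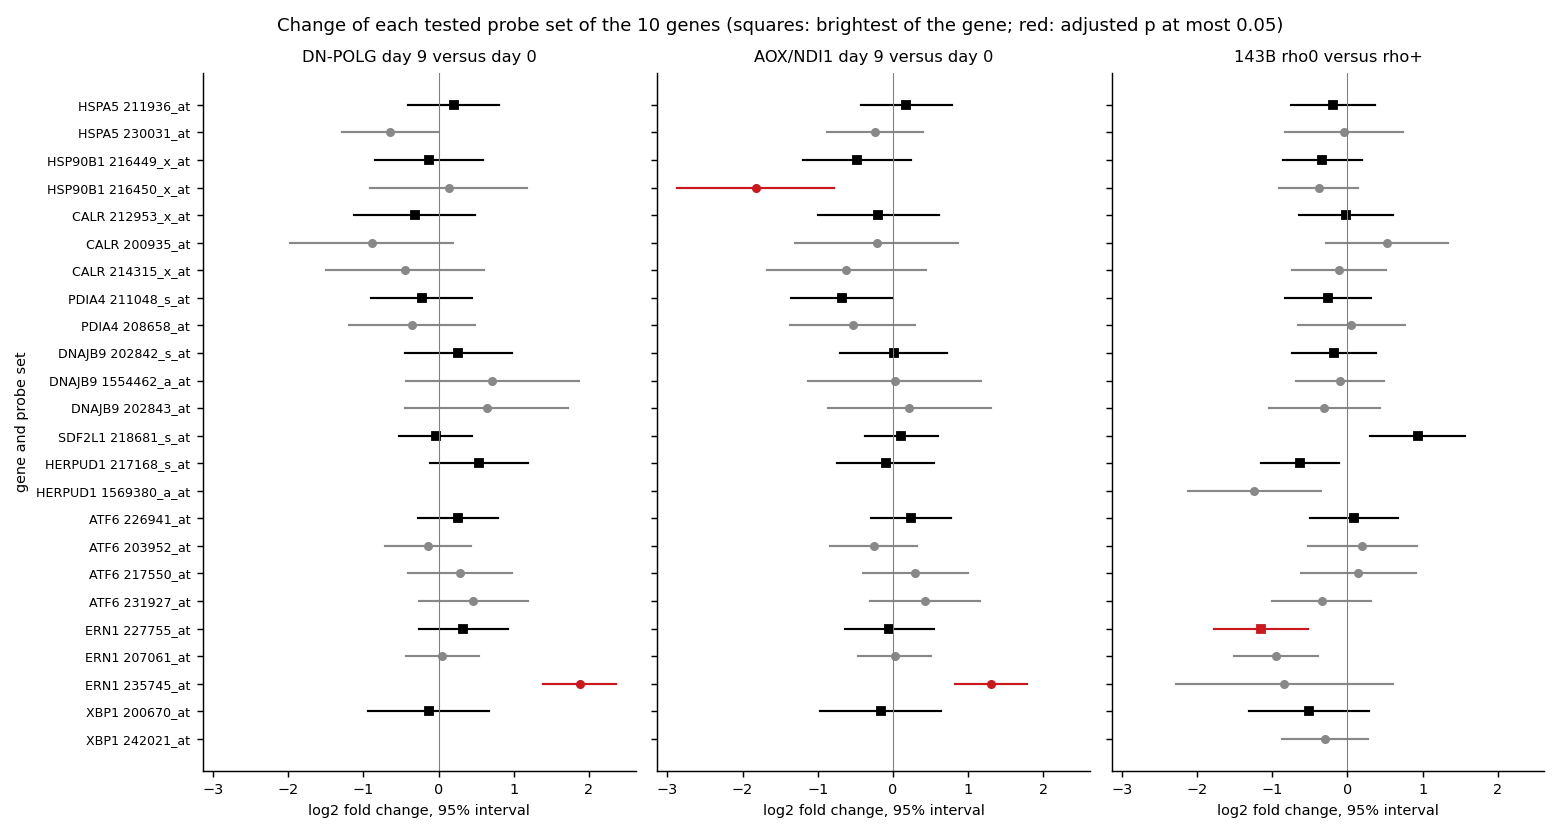
Log2 fold change with its 95% interval (x axis) for each tested probe set of the 10 genes (y axis) in DN-POLG day 9 versus day 0, AOX/NDI1 day 9 versus day 0 and 143B rho0 versus rho+. Squares mark the brightest probe set of a gene and red those with an adjusted p of at most 0.05: ERN1 235745_at in both HEK293 lines, HSP90B1 216450_x_at in AOX/NDI1 cells and ERN1 227755_at in 143B, while most intervals hold 0.

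Whether the day 9 responses of the HEK293 lines differed was tested as an interaction, which called 0 of the 10 genes and 0% of all genes (limma; 1 of the 10 and 742 of all at an unadjusted p of at most 0.05). The ANOVA of the methods also called 0 of the 10. For ERN1 235745_at the difference, AOX/NDI1 minus DN-POLG, was -0.57 (-1.25 to 0.11), and for HERPUD1 -0.63 (-1.55 to 0.28). HSPA5 differed by -0.03 (-0.88 to 0.83), and by -0.38 without replicate 3 of DN-POLG day 0. The widest was HSP90B1 216450_x_at at -1.96 (-3.44 to -0.49, unadjusted p = 0.0124, adjusted p = 0.999). These intervals leave room for differences of over 1 on the log2 scale at some genes.

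Compared directly, AOX/NDI1 and DN-POLG cells gave calls in 0 of the 10 genes at day 0 and 0 at day 9, against 0.00826% of all genes at each day (limma; 1 and 2 of the 10 at an unadjusted p of at most 0.05). At day 9, 8 of the 22 probe sets did not overlap, against 12.3% of all. Of the 22, 7 were apart and lower in AOX/NDI1 cells, against 6.60% of all. Over all tested probe sets, 2839 did not overlap, and 1526 of these were lower. The lower ones of the 10 genes were HSPA5 211936_at (-0.34), HSP90B1 216450_x_at (-1.54), CALR 212953_x_at (-0.22), both of PDIA4 (-0.60 and -0.49), SDF2L1 (-0.32) and ERN1 235745_at (-0.56). ATF6 231927_at was higher (0.46). The median over the 10 genes was -0.28, against -0.01 for all genes. At day 0, 1 probe set did not overlap, against 14.3% of all: ERN1 227755_at, with 722.6, 741.0 and 712.6 in AOX/NDI1 against 680.1, 441.6 and 336.0 in DN-POLG cells (0.64, 0.05 to 1.23).

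In 143B cells without mtDNA, ERN1 was the single call, 1 of 10 against 11.4% of all 11433 tested genes, and it was lower. At 227755_at the signals were 1543, 2539 and 1940 in rho+ and 756.6, 912.4 and 1011 in rho0 cells. Every rho0 array lay below every rho+ array, and the probe set fell by 1.15 on the log2 scale (-1.77 to -0.53, adjusted p = 0.0421 from limma). At 207061_at the arrays were apart in the same direction, 187.5, 176.0 and 199.4 against 103.8, 78.3 and 112.2 (-0.95, adjusted p = 0.0517), and at 235745_at they overlapped, with replicate 3 of rho0 at 560.8 against 98.9 and 116.8 (-0.84, -2.28 to 0.60). The call was lost with any 1 of 5 arrays left out (adjusted p of 0.0666 to 0.156), all but replicate 3 of rho0. It was also lost with the replicate number as a block (adjusted p = 0.0767) and with the methods' ANOVA (adjusted p = 0.113). The same held with no signal filter (0.133) and with the probe sets averaged (-0.98, 0.0966). Setting the arrays to equal medians raised every log2 value of this comparison by 0.31 and gave -0.84 for ERN1 (adjusted p = 0.105).

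SDF2L1 was at 292.0, 195.1 and 182.8 in rho+ and 485.9, 418.5 and 355.7 in rho0 cells, apart and higher by 0.93 (0.30 to 1.56, adjusted p = 0.0757). It passed with quantile normalization (1.09, adjusted p = 0.0426), with equal medians (1.24, adjusted p = 0.027), and without replicate 3 of rho0 (1.05, adjusted p = 0.0290). HERPUD1 was apart and lower at both probe sets, 3367, 3610 and 4348 against 2490, 2374 and 2425 at the brightest (-0.63, -1.15 to -0.11, adjusted p = 0.123), and 392.3, 245.2 and 154.3 against 82.4, 145.6 and 94.4 at 1569380_a_at (-1.24, adjusted p = 0.0864). With its probe sets averaged, HERPUD1 passed (-0.93, adjusted p = 0.0493), and it also passed with array weights (-0.63, adjusted p = 0.0259). These 2 genes, which carry the ERSE-II letters printed above, lay on opposite sides of 0.

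The chaperones lay closer to 0. HSPA5 had 18017, 17943 and 15692 in rho+ and 16393, 17161 and 12195 in rho0 cells (-0.19, -0.75 to 0.37), and HSP90B1 had 17848, 18734 and 16333 against 14882, 15110 and 12113, apart, at -0.33 (-0.86 to 0.19). At their brightest probe sets, CALR, PDIA4, DNAJB9, ATF6 and XBP1 gave -0.02, -0.26, -0.18, 0.09 and -0.51, with adjusted p of 0.381 to 0.976. In all, 7 of the 24 probe sets did not overlap, against 32.9% of all probe sets. The ACTB ratio was 10.4 to 17.1 in rho+ and 5.53 to 8.12 in rho0 cells (p = 0.10 by an exact two-sided permutation, which 3 arrays a group cannot go below), and its part in these values was not tested. Of 7 mesenchymal markers tested, 3 were higher in rho0 cells (CD44 by 2.36, LGALS1 by 1.86 and SPARC by 1.79, each at 1 probe set), and the part of this in the values of the 10 genes was not tested. Loss of mtDNA and other differences between these lines cannot be told apart.

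The wider pathway was followed in 6 lists of genes outside the 10, where a gene counts as called if any of its probe sets passed. In DN-POLG cells at day 9, ATF4 and its targets had 13 of 29 tested genes higher and 1 lower, with 1 more (STC2) called both ways at different probe sets. Over all genes, 4.04% had a probe set called higher and 9.66% called lower. Among them ASNS, asparagine synthetase, rose by 1.66 (adjusted p = 0.00119), PCK2, mitochondrial phosphoenolpyruvate carboxykinase, by 1.70, and NUPR1, a stress-response chromatin protein, by 3.36. SLC38A2, an amino acid transporter, fell by 1.36. The ATF4 transcript itself, named here after its values were seen, gave 0.52 (adjusted p = 0.278).

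In the CHOP arm, 2 of 7 tested genes rose at day 9 of DN-POLG: DDIT3, named here after its values were seen, by 1.14 (adjusted p = 0.0334), and ATF3, a stress-induced factor, by 2.25 (adjusted p = 0.0414). BCL2L11, the death protein BIM, had probe sets called in both directions, in DN-POLG and in AOX/NDI1 cells. In AOX/NDI1 cells 2 of 7 rose, ATF3 by 2.82 and PPP1R15A, the subunit that returns eIF2alpha to its unphosphorylated state, by 2.38 (adjusted p = 0.00948), while 0 of 29 genes of the ATF4 list rose and 3 fell (median 0.24), with 15 of the 29 at an unadjusted p of at most 0.05. Among all genes of AOX/NDI1 cells, 4.28% were called higher and 14.4% lower. The interaction called 0 genes in each of these lists, with 1 of 7 and 7 of 29 at an unadjusted p of at most 0.05. The medians of that difference were -0.02 and -0.52, against -0.04 for all genes. The ATF4 list did not start level: at day 0 its median in AOX/NDI1 over DN-POLG cells was 0.24, with 24 of 29 genes above 0. At day 9 that median was -0.27, against 0.03 and -0.01 for all genes on these days. In both comparisons 0 genes of the list were called.

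In the ER lists most calls were lower, as they were over all genes, and many rest on 1 of several probe sets of a gene. Over all genes at day 9, 9.66% had a probe set called lower in DN-POLG and 14.4% in AOX/NDI1 cells. The shares called higher were 4.04% and 4.28%. Among 17 ER chaperones and disulphide enzymes, 2 fell at day 9 of DN-POLG: MANF, a secreted survival factor of the ER, by 0.64, and TXNDC11, a thioredoxin-domain protein, by 1.06 (median of the list 0.04). In AOX/NDI1 cells 1 of the 17 (TXNDC11) was lower and the median was -0.39. The list for ER-associated degradation had 3 of 14 lower in DN-POLG, EDEM3, which trims mannose from glycoproteins, by 1.72, FAF2, which recruits the p97 ATPase, by 1.63, and UBE2J1, a ubiquitin-conjugating enzyme. In AOX/NDI1 cells 5 of 14 were lower, among them EDEM3 by 1.98, DERL2, a derlin, by 2.18, and SELENOS, a p97 anchor, by 1.01. The DERL2 value comes from the dimmer of its 2 tested probe sets. There the AOX/NDI1 arrays gave 266.0 to 393.1 at day 0 and 27.6, 101.7 and 108.9 at day 9, where the filter lay at 57.2. No gene of this list was higher in either line.

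The translocon and early secretory list had 3 of 18 lower in DN-POLG cells at day 9, among them SEC62, a translocon subunit, by 0.88, and SPCS3, of the signal peptidase, by 0.79. In AOX/NDI1 cells 4 were lower, SEC63, a J-protein of the translocon, by 1.58 among them, and 1 higher, SEC31A, a COPII coat protein, by 0.67. Of 10 other sensors and factors, NFYA, a subunit of the NF-Y that reads CCAAT in the ERSE, fell by 2.10 in DN-POLG (adjusted p = 0.00209) and by 2.00 in AOX/NDI1 cells at 228433_at. Its other 3 probe sets did not pass and lay from 0.12 to 0.84 in DN-POLG and from -0.51 to -0.22 in AOX/NDI1 cells. At 228433_at the DN-POLG arrays ranged from 201.6 to 462.2 before doxycycline and from 47.7 to 106.5 after 9 days. ATF6B, a relative of ATF6, rose by 0.94 in DN-POLG at 1 of its 2 tested probe sets. CREB3L2, a factor of the ER membrane, rose by 1.56 in AOX/NDI1 cells, also at 1 of its 2 tested probe sets. That was not its brightest, as no gene of this list lay above 0.28 in AOX/NDI1 cells at its brightest probe set.

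At day 3 none of the 6 lists held a call (limma; 0 to 5 genes of each at an unadjusted p of at most 0.05), and at day 6 3 of 29 ATF4-list genes rose and EDEM3 fell by 1.26, against 0.587% of all genes called higher and 1.92% lower. In 143B rho0 cells 1 ATF4-list gene rose (NUPR1, by 2.15) and 3 fell, against 3.68% of all genes called higher and 7.75% lower. TRIB3, a pseudokinase induced by CHOP, fell by 1.19 and CHAC1, a glutathione-degrading enzyme, by 1.61. Of the ER lists, EDEM1 fell by 1.99 and SSR4, of the translocon-associated complex, rose by 1.57. DNAJC10, an ER reductase, fell by 1.56 at 243635_at, and its other probe sets among the 5 tested did not pass. That probe set was dim, with 121.1 to 186.7 in rho+ and 43.8 to 76.4 in rho0 cells, where the filter lay at 83.3. The comparisons of days 3, 6 and 9 share their day 0 arrays, and their counts are given side by side for that reason.

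**Figure D4:**
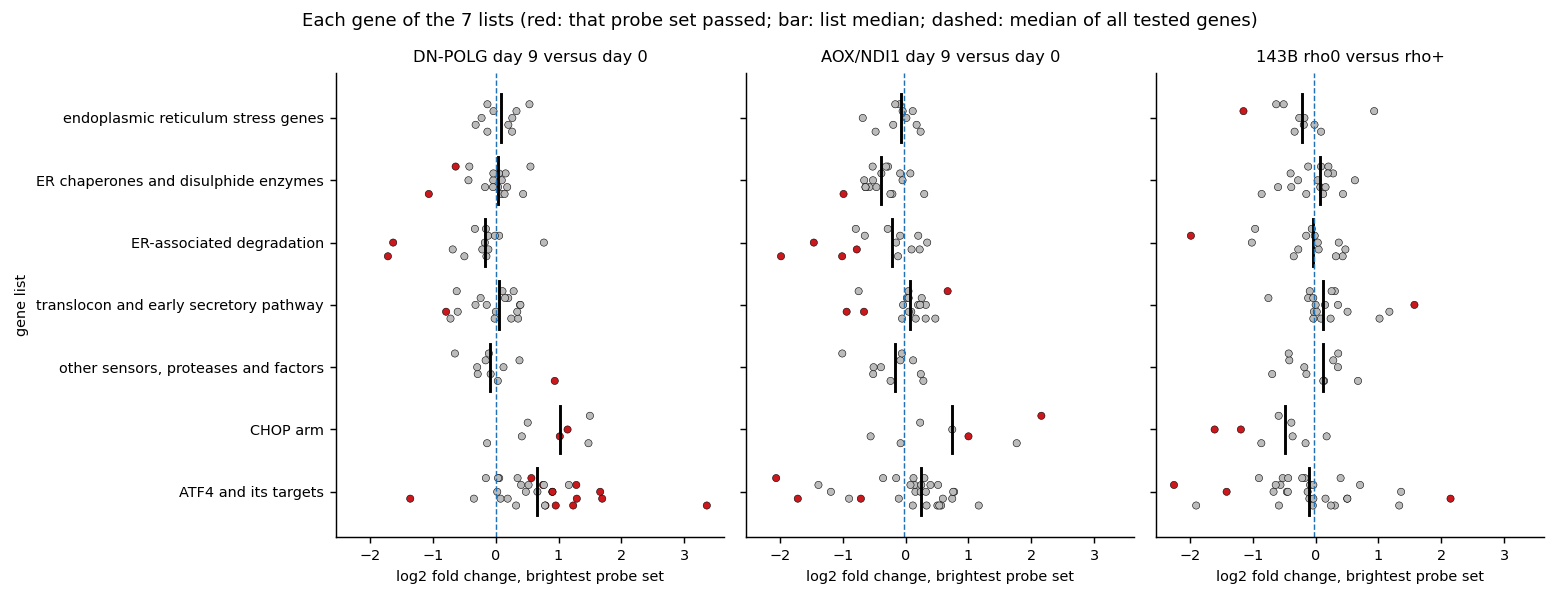
Log2 fold change at the brightest probe set of every tested gene (x axis) in the 10 ER stress genes and the 6 other lists (y axis), in DN-POLG day 9, AOX/NDI1 day 9 and 143B rho0 cells, each against its control. Points are genes, red where that probe set passed, bars are list medians and the dashed line is the median of all tested genes: in DN-POLG cells the medians of the CHOP arm (1.02) and of the ATF4 list (0.66) lie to the right, and that of the 10 genes (0.08) does not.

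The 10 genes did not all follow HSPA5 across cultures, and correlations among the others were not computed. Over the 18 HEK293 arrays, the gene whose log2 signal followed that of HSPA5 most closely among 12103 genes was HERPUD1 (Pearson r = 0.85, and 0.90 without replicate 3 of DN-POLG day 0, the closest in both). After it came SEC61B, of the translocon channel (0.81), HSPA9, the Hsp70 of mitochondria (0.79), SLC35B1, the ATP carrier of the ER (0.78), CD164, a sialomucin (0.77), and HEXA, a lysosomal hexosaminidase (0.75). PDIA4 (0.65) and HSP90B1 (0.52) followed less closely, and SDF2L1, CALR, DNAJB9, XBP1, ERN1 and ATF6 lay between 0.26 and -0.48. Apart from HERPUD1, this order rests on that array. Without it, SEC61B was 43rd (0.68), SLC35B1 87th (0.65) and HEXA 75th (0.65), while the closest after HERPUD1, chosen here after their values were seen, were LDLRAD3 (0.81), CTH, an enzyme of cysteine synthesis (0.81), and CEBPG, a partner of ATF4 (0.79), both of the ATF4 list, with r of 0.29, 0.39 and 0.13 over all 18 arrays. For PDIA4, HSP90B1 and ATF6, r without it was 0.41, 0.25 and 0.04. These correlations describe arrays that share cell lines, groups and scaling.

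**Figure D5:**
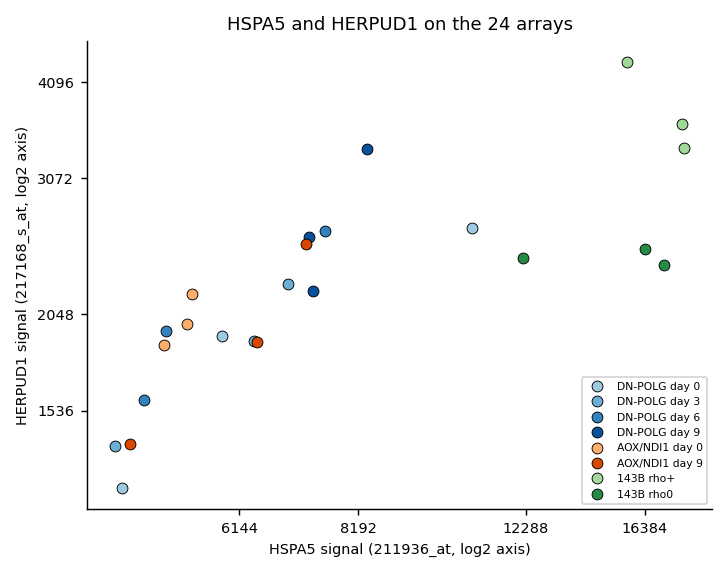
Signal of HSPA5 (x axis) and HERPUD1 (y axis) on the 24 arrays, both on log2 axes; each point is an array, coloured by group. The 18 HEK293 arrays fall along a line (r = 0.85), with DN-POLG days 0 to 9 spread along it, and rho0 arrays have less HERPUD1 than rho+ arrays at similar HSPA5.

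Levels also differed between the cell lines, which differ in origin, and these differences are given without a test. HSPA5 was 4548 to 10783 on the HEK293 arrays and 12195 to 18017 in 143B, a ratio of geometric means of 2.61. At their brightest probe sets, HSP90B1 was 3.16-fold, CALR 6.34-fold, PDIA4 4.34-fold and DNAJB9 4.50-fold higher in 143B. For these 5 genes every 143B array lay above every HEK293 array at these probe sets, as for 10.7% of the 12104 genes tested in HEK293. Those genes were filtered on HEK293 signal alone, which leaves out genes bright only in 143B. SDF2L1 lay the other way, 842.1 to 1723 in HEK293 and 182.8 to 485.9 in 143B, as 29.5% of those genes did. HERPUD1, ATF6, ERN1 and XBP1 had ratios of 1.5, 1.02, 2.17 and 0.55 and overlapped at their brightest probe sets. Other probe sets differed from this for DNAJB9 and HERPUD1. DNAJB9 overlapped at 1554462_a_at (188.7 to 1360 in HEK293, 621.8 to 942.8 in 143B) and at 202843_at (174.8 to 1004 and 950.3 to 1952). HERPUD1 was apart at the dim 1569380_a_at, with 1.99 to 49.1 in HEK293 and 82.4 to 392.3 in 143B. The ACTB ratios of the lines, given above, were apart as well but for 1 HEK293 array, and their part in these ratios was not tested.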

How the data were processed

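RNA of 24 cultures was hybridised to Affymetrix HG-U133 Plus 2.0 arrays. The authors deposited MAS5 signal intensities from Affymetrix Expression Console, per the labels, on a linear scale. Log2 of the deposited signal was taken with nothing added and no further normalization. Arrays carry no count of reads, and the number of cultures, 3 a group, limits the precision. Of 54675 probe sets, 41091 had a single symbol in the platform annotation, and those whose mean over the arrays of a line reached the median probe set (log2 signal of 5.84 in HEK293, 6.38 in 143B) were tested: 23132 and 22786.

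limma 3.58.1 in R 4.3.3 was fitted to the 18 HEK293 arrays with 6 group means, and to the 6 arrays of 143B apart, with Benjamini-Hochberg adjustment over all tested probe sets at 0.05. Every interval and adjusted p in the text comes from it. The code was tested on simulated data. For the 10 genes, the list medians and the correlations, a gene's brightest probe set in its line gave its value. The figure of log2 fold changes with intervals shows every tested probe set of the 10 genes in its comparisons, and the text gives values for a part of them. Genes named from the 6 other lists are given at the probe set with their smallest adjusted p in any comparison, which need not be the brightest. From other lists, up to 4 genes with the smallest adjusted p in any comparison were named, and the 5 genes most like HSPA5; further names are genes of small counts. Exact permutation tests used scipy 1.17.1. The main fit did not pair arrays, and replicate number entered only as a block in an alternative. Each culture round came from a common starter. Deviations of same-numbered DN-POLG arrays correlated with those of day 0 at day 3 (0.323 to 0.506) and day 6 (0.165 to 0.205). The arrays of day 9 (-0.32 to 0.04), of AOX/NDI1 cells (-0.038 to 0.066) and of 143B (-0.178 to 0.074) did not bear out a pairing. Promoters came from RefSeq, GRCh38.p14. The 10 genes and the lists were chosen with earlier results of these data known.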

Additional observations from a re-analysis of the deposited data

How the results depend on the processing

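Alternatives were 11 other choices of processing, each array left out in turn, and, chosen after seeing the data, no replicate 1 of DN-POLG day 6. Of 84 values followed for the 10 genes, 5 passed, and 0 of these changed sign; of the others, 52 changed sign somewhere and 5 passed somewhere. The number of the 10 genes called at day 6 of DN-POLG was 1, and 0 with equal medians, no signal filter, probe sets averaged, only the arrays compared, or the replicate block; leaving out an array gave 0 to 2. For AOX/NDI1 day 9 the number was 2, and 1 without a filter or without _x_at and _s_at probe sets, 0 with probe sets averaged, 4 with array weights (adding CALR and PDIA4, when 54.9% of all genes were called) and 5 with only the arrays compared (44.8%); leave-one-out gave 1 to 2. In 143B it was 1, and 2 with quantile normalization, 4 with array weights (adding CALR, HERPUD1 and SDF2L1, at 47.7%), and 0 without a filter, with the replicate block (ERN1 adjusted p = 0.0767) or with the methods' ANOVA; with probe sets averaged or equal medians it stayed 1, but the gene was HERPUD1 or SDF2L1 in place of ERN1; leave-one-out gave 0 to 2. AOX/NDI1 against DN-POLG at day 9 went from 0 to 1 (HSP90B1) without replicate 2 of AOX/NDI1 day 9, a leave-one-out range of 0 to 1. The counts for DN-POLG days 3 and 9, the interaction and day 0 were the same under every alternative run, and the block changed no other call. The causes were not tested. Equal medians raised every log2 value by 0.11 at DN-POLG day 6, 0.14 in AOX/NDI1 cells and 0.31 in 143B. With 3 cultures a group, most intervals of the 10 genes span over 1 on the log2 scale.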
